A study of Mus musculus with 2 samples.

Results

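The genes described here are the 7 that make, load, take up and break down the transmitter GABA or set the chloride gradient it acts on: *Gad1*, *Gad2*, *Slc32a1*, *Slc6a11*, *Abat*, *Slc12a2* and *Slc12a5*. They were chosen by symbol from the 32285 genes listed in each library, and each symbol matched 1 gene. None of them was used to sort cells into classes. The data are single-cell RNA sequencing counts from mouse cerebral cortex taken at embryonic day (E) 16.5. There were 2 libraries, both of the wild-type (WT) genotype and prepared with papain and a 10x Genomics 3' droplet kit, and they form a single group with no treated or mutant arm. The titles also carry the word EomesDot, which the labels do not explain, and they do not give the number of embryos behind each library. All comparisons below are therefore made among classes of cells within the libraries (n = 2). Their p-values set class differences against the spread left between these libraries, estimated from all classes in 1 fit. They are not read as a measure of variation among embryos.

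GABA is made from glutamate by 2 glutamate decarboxylases, GAD67, encoded by *Gad1*, and GAD65, encoded by *Gad2*, and is loaded into synaptic vesicles by VGAT, encoded by *Slc32a1*. GAT-3, encoded by *Slc6a11*, clears it from the extracellular space, mainly into astrocytes, and GABA transaminase, encoded by *Abat*, breaks it down in mitochondria. The sodium-potassium-chloride cotransporter NKCC1, encoded by *Slc12a2*, brings chloride into the cell, and the potassium-chloride cotransporter KCC2, encoded by *Slc12a5*, moves it out. In the embryonic cortex NKCC1 prevails and GABA can depolarise cells, whereas KCC2 rises as neurons mature and GABA becomes hyperpolarising.

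On the mouse build GRCm38.p6 of RefSeq, which corresponds to the build mm10 named in the submitters' processing notes, *Gad1* (ENSMUSG00000070880) spans chr2:70561303-70602014 and *Gad2* (ENSMUSG00000026787) chr2:22621015-22693877. *Slc32a1* (ENSMUSG00000037771) spans chr2:158607260-158615747, *Slc12a5* (ENSMUSG00000017740) chr2:164960846-164999731, and *Slc6a11* (ENSMUSG00000030307) chr6:114131241-114249886. *Abat* (ENSMUSG00000057880) spans chr16:8513429-8621568, and *Slc12a2* is ENSMUSG00000024597. The RefSeq promoter table held 5 of the 7 genes. The stretches between 250 and 75 bases before the start site in that table are shown for 3 of them, which stand for the 3 main patterns below: a gene of GABAergic neurons, a gene of radial glia and the chloride exporter. The *Slc32a1* stretch precedes a start site inside the span given above, so it is not upstream of the whole gene, and it also lies within the noncoding gene *Gm14204*, on chr2:158595472-158610723. All 3 are on the plus strand of GRCm38.p6 and are written 5' to 3', and capitals mark GGGCGG or its reverse complement, the GC box.
*Slc32a1*, chr2:158610508-158610683: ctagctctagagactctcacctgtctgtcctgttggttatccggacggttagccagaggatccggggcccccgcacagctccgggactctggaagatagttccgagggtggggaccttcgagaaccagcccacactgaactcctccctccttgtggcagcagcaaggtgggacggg
*Slc6a11*, chr6:114130991-114131166: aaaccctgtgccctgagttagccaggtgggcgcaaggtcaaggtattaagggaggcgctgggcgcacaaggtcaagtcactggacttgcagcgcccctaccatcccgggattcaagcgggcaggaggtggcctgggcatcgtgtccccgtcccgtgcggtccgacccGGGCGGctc
*Slc12a5*, chr2:164960596-164960771: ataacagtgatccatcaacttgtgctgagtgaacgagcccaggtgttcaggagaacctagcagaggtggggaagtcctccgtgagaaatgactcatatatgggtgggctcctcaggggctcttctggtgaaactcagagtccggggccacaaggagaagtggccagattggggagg

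The search covered both strands for GGGCGG, the TATA box TATAAA, the E-box CAGCTG and the homeodomain core TAATTA, and no matches overlapped. *Slc6a11* held 1 GC box, starting 83 bases before the start, and its window was 65.9% G or C. The windows of *Slc32a1* and *Slc12a5*, with 61.4% and 54.5% G or C, held no match to any of the 4 motifs. Among 32851 promoter windows of the same length, 20.4% held the GC box, 8.25% the TATA box, 9.0% the E-box and 3.79% the homeodomain core, so the absence of a match in a given window was common.

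Replicate 1 held 46398156 UMIs (unique molecular identifiers, 1 per captured molecule) and replicate 2 held 64324236. Cells with 1500 to 60000 UMIs and under 10% mitochondrial UMIs were kept, and after removal of likely doublets 5534 and 9136 cells remained, with medians of 5493 and 4728 UMIs and 15 barcodes in common. Each cell entered 1 of 16 classes if its score for that class's marker genes led clearly, and 3298 and 5130 cells did so. The other 40.4% and 43.8% stayed without a class and held between 26.4% and 50.6% of the UMIs of each of the 7 genes, so the class sums describe only part of each gene's signal. Classes held 21 to 560 cells in replicate 1 and 33 to 871 in replicate 2. The markers of each class, summed as CPM, were at least 1.79 times higher than in the next class. CPM are UMIs scaled to the same total in every class and library. Cells were placed by these same markers, so this describes the classes and is not a check of them.

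The names are those of the marker lists. Interneuron-like cells of the medial ganglionic eminence (MGE; 344 and 474 cells) and caudal ganglionic eminence (CGE; 259 and 415), which are the ventral sources of cortical interneurons, and striatal projection neuron-like cells (303 and 422) needed a UMI of a ventral lineage gene such as *Dlx1*. The striatal class shows that the tissue labelled cortex also held cells with ventral markers. The CGE class carried *Meis2*, a gene of striatal and lateral ganglionic cells, at 1827 and 1677 CPM against 105 and 93.9 CPM in the MGE class, and *Top2a*, a gene of dividing cells, at 143 and 208 CPM against 24.6 and 20.1. GABAergic progenitor-like cells (134 and 230) needed *Dlx1* or *Dlx2* together with a progenitor gene such as *Gsx2*. They carried *Meis2* at 1926 and 1887 CPM, near the CGE level and far from the MGE one. Whether they give rise to the interneurons compared with them below was not tested. The excitatory lineage was covered by radial glial cells (RGCs; 288 and 478), intermediate progenitor cells (IPCs; 285 and 404), newborn migrating neurons (560 and 871), upper-layer neurons (506 and 856) and deep-layer neurons (289 and 393).

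Both GAD genes marked the 4 GABAergic classes, but with different orders. *Gad1* stood at 353 and 322 CPM in MGE interneurons, 352 and 320 in CGE interneurons, 164 and 153 in striatal projection neurons and 46.3 and 48.0 in GABAergic progenitors (replicates 1 and 2). The MGE and CGE values overlapped, and the later steps of that order did not. In the excitatory lineage *Gad1* lay between 1.20 CPM in IPCs and 8.41 CPM in deep-layer neurons, that is, on 3 to 19 UMIs per class and library.

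*Gad2* was highest in striatal projection neurons, at 724 and 605 CPM, next to 623 and 544 in MGE interneurons, with overlapping ranges. CGE interneurons followed with 506 and 474 CPM and GABAergic progenitors with 351 and 254, and these steps did not overlap. In the excitatory lineage *Gad2* lay between 7.60 and 24.5 CPM, the latter in IPCs. UMIs from the 3' end of a transcript are not scaled to gene length, so levels are compared between classes and not between genes.

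*Slc32a1* was lower throughout but followed the same classes. It stood at 66.3 and 77.6 CPM in MGE interneurons, 68.1 and 51.9 in CGE interneurons, 50.1 and 44.7 in striatal projection neurons and 25.4 and 17.7 in GABAergic progenitors. The first pair overlapped. The CGE and striatal values came as close as 51.9 and 50.1 CPM, and striatal projection neurons were not called against interneurons in the edgeR fit described below (-0.45 ± 0.23, adjusted p = 0.225), though they were when the fit held just the classes compared (-0.47, adjusted p = 0.025). In no class of the excitatory lineage did it exceed 3.27 CPM.

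**Figure D1:**
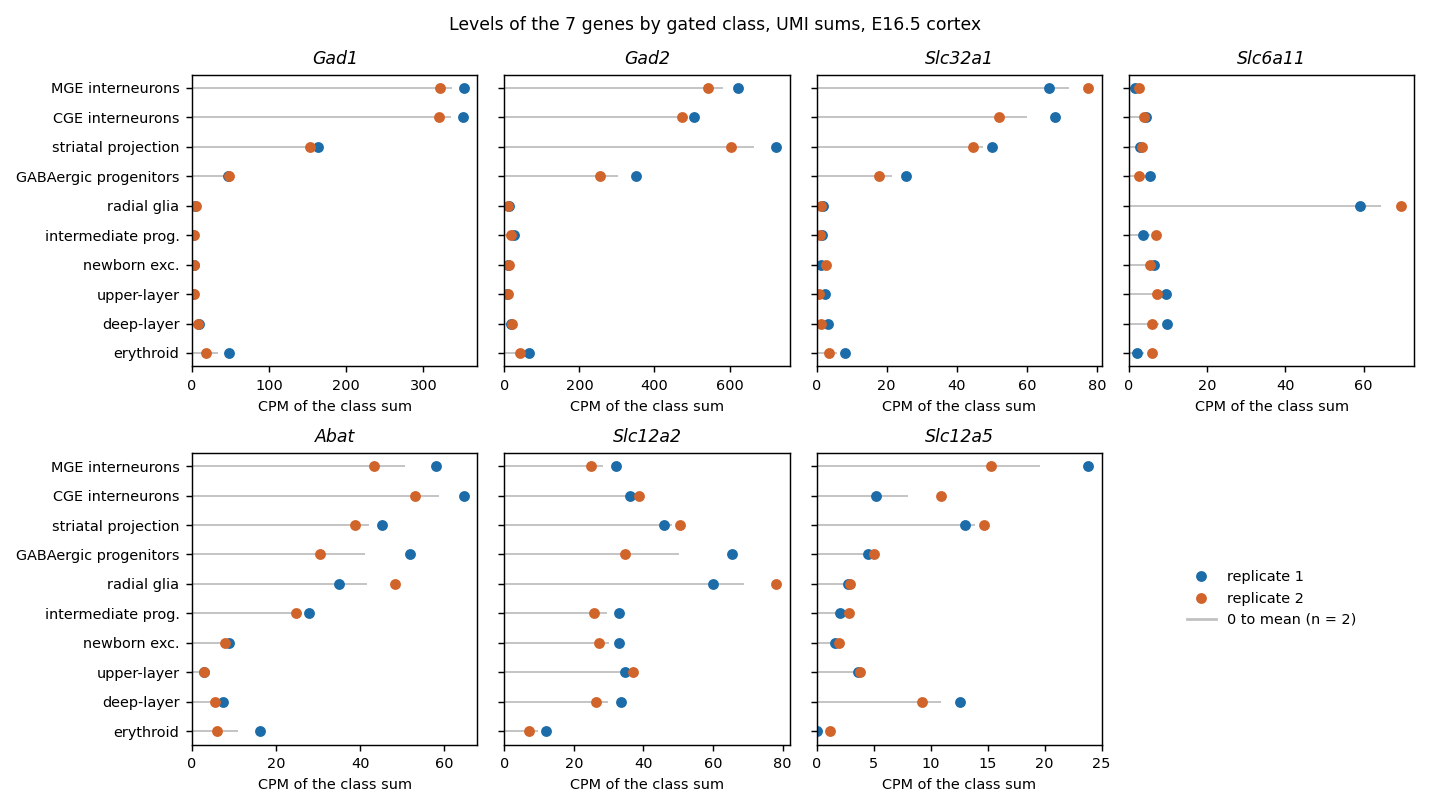
Levels of the 7 genes in CPM (x axes, linear, a scale of its own for each gene) in 9 neuronal and progenitor classes and in erythroid cells (y axis); points are the 2 replicates and the grey line runs from 0 to their mean. *Gad1*, *Gad2* and *Slc32a1* stand out in the 4 GABAergic classes, *Slc6a11* in radial glia at 59.1 and 69.5 CPM, and *Slc12a5* stays at or under 23.9 CPM in the classes drawn.

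Erythroid cells, which should not make GABA, were taken as a reference for background, though not as a uniform one. They gave 48.4 and 18.7 CPM of *Gad1*, 66.6 and 42.2 of *Gad2*, and 8.07 and 3.51 of *Slc32a1*, all higher than in upper-layer neurons, and the *Gad1* range reached that of GABAergic progenitors. A few cells carried these values: before thinning, 12 of 139 and 10 of 216 erythroid cells had a *Gad1* UMI, and in thinned replicate 1 there were 6 cells with both *Gad1* and *Gad2*. The excitatory lineage, at 1.20 to 8.41 CPM of *Gad1*, gave a much lower floor, and the source of the erythroid UMIs was not tested. With each cell thinned to 1500 UMIs, *Gad1* was detected in 36.6% ± 6.16 (SD, n = 2) of MGE interneurons and 39.9% ± 1.83 of CGE interneurons. It was detected in 21.1% ± 2.36 of striatal projection neurons, 7.74% ± 1.72 of GABAergic progenitors and 4.88% ± 4.29 of erythroid cells. The erythroid range, 7.91% and 1.85%, overlapped that of the GABAergic progenitors, 8.96% and 6.52%, whereas radial glia, IPCs, newborn and upper-layer neurons gave at most 0.628% in either library. The median depth before thinning was 2804 and 3198 UMIs in erythroid cells and 3312 and 3586.5 in MGE interneurons, so the thinned shares are the ones to compare.

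*Gad2* was detected in 57.5% ± 5.94 of thinned striatal projection neurons, 54.0% ± 2.97 of MGE interneurons, 45.7% ± 0.899 of CGE interneurons and 32.6% ± 5.57 of GABAergic progenitors, against 6.37% ± 1.16 of erythroid cells. All 4 shares were above the erythroid share in both libraries. In every class of the excitatory lineage the thinned shares were below the erythroid mean, at most 1.37% for *Gad1* and 2.99% for *Gad2*. These shares are read neither as expression nor as its absence. Without thinning, *Gad1* was detected in 65.2% ± 3.23 and *Gad2* in 79.8% ± 0.642 of MGE interneurons, against 6.63% ± 2.83 and 9.67% ± 0.575 of erythroid cells.

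**Figure D2:**
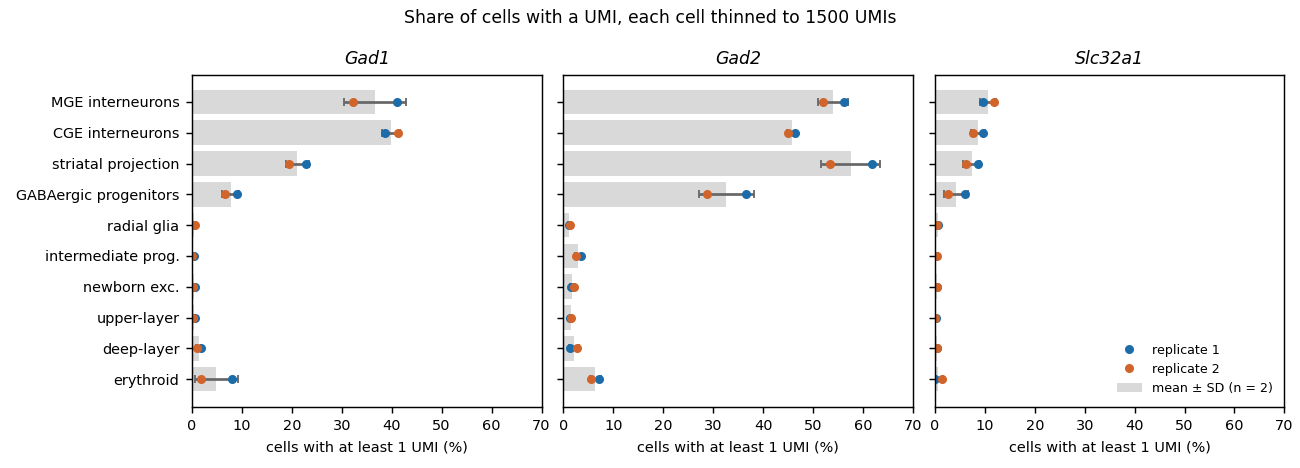
Share of cells with at least 1 UMI of *Gad1*, *Gad2* and *Slc32a1* (x axes, percent) after each cell was thinned to 1500 UMIs, by class (y axis); bars are means, error bars are SD over the 2 replicates, shown as points. *Gad2* is detected in 32.6% of GABAergic progenitors and *Gad1* in 7.74%, while erythroid cells give 6.37% and 4.88%.

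At this depth many cells gave a UMI of 1 GABA gene without the others. In thinned MGE interneurons, 83 of 344 cells in replicate 1 and 83 of 474 in replicate 2 had both *Gad1* and *Gad2*, and 74.4% and 71.1% had at least 1 of *Gad1*, *Gad2* and *Slc32a1*. In CGE interneurons 72.6% and 68.9% had at least 1 of the 3 genes, in striatal projection neurons 70.6% and 63.0%, and in GABAergic progenitors 42.5% and 33.0%. The GABAergic progenitors were lower than the 3 neuron classes in both libraries.

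The balance of the 2 decarboxylase transcripts differed between classes. *Gad1* gave 0.566 and 0.592 UMIs per *Gad2* UMI in MGE interneurons and 0.695 and 0.675 in CGE interneurons. The same ratio was 0.226 and 0.253 in striatal projection neurons, with exact binomial 95% intervals of 0.196 to 0.261 and 0.223 to 0.287 that cover counting error only. GABAergic progenitors had the lowest ratio among the GABAergic classes, 0.132 (0.0967 to 0.177) and 0.189 (0.146 to 0.242). In RGCs the ratio was 0.379 and 0.412 and in IPCs 0.0492 and 0.111, on 3 and 6 *Gad1* UMIs. The intervals of striatal projection neurons and of interneurons did not overlap in either library, whereas those of striatal projection neurons and GABAergic progenitors overlapped in replicate 2.

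**Figure D3:**
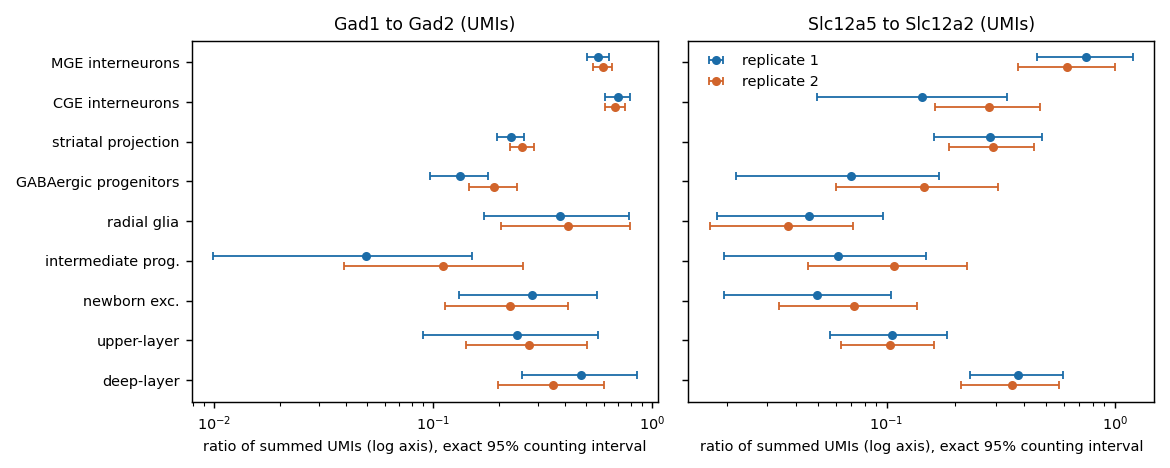
Ratio of summed UMIs of *Gad1* to *Gad2* and of *Slc12a5* to *Slc12a2* (x axes, log scale) by class (y axis); points are the replicates and error bars the exact 95% counting intervals. The *Gad1* to *Gad2* ratio falls from 0.695 and 0.675 in CGE interneurons to 0.132 and 0.189 in GABAergic progenitors, and the *Slc12a5* to *Slc12a2* ratio is highest of the classes drawn in MGE interneurons at 0.744 and 0.617.

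*Slc6a11*, the uptake transporter of glial cells, was a gene of radial glia in these data. It stood at 59.1 and 69.5 CPM in RGCs and at 1.49 to 9.81 CPM in the other 8 neuronal and progenitor classes drawn in the plot of levels. Outside these, Cajal-Retzius cells had 1 UMI in replicate 1 and none in replicate 2, and the small class of *Olig*-expressing glial progenitors gave 4.99 and 27.2 CPM, on 1 and 6 UMIs. *Slc6a11* was detected in 9.85% ± 0.315 of thinned RGCs, against 0.823% ± 0.146 of erythroid cells.

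*Abat*, the enzyme of GABA breakdown, was shared by GABAergic cells and cortical progenitors, though not confined to them. It was low in newborn, upper-layer and deep-layer neurons. It stood at 64.7 and 53.0 CPM in CGE interneurons, 58.1 and 43.3 in MGE interneurons, 45.3 and 38.8 in striatal projection neurons and 51.8 and 30.3 in GABAergic progenitors. RGCs had 35.0 and 48.3 CPM, a range that overlapped those of MGE interneurons, striatal projection neurons and GABAergic progenitors and lay below that of CGE interneurons. IPCs had 27.7 and 24.8 CPM, below all of these. Along the excitatory lineage the level was 8.82 and 7.87 CPM in newborn neurons and 2.88 and 2.94 in upper-layer neurons. Deep-layer neurons had 7.48 and 5.40 CPM. Erythroid cells, as a reference on 8 and 5 UMIs, had 16.1 and 5.86 CPM. None of these neuron classes was above that reference in both libraries, and they are not read as clear expression. The levels of newborn and upper-layer neurons are compared below. Cajal-Retzius cells, the early neurons of the marginal zone, had 65.5 and 82.5 CPM on 21 and 33 cells. Outside the neuronal lineages, meningeal fibroblasts had 45.1 and 40.0 CPM, on 20 and 26 UMIs.

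*Slc12a2*, the chloride importer, gave UMIs in every class, erythroid cells included, and, among the 5 neuron classes tested below and newborn neurons, stayed between 24.8 and 50.6 CPM. Its levels were highest outside the neuronal lineages, at 311 and 313 CPM in mural cells, the contractile cells of small vessels, and 199 and 103 CPM in microglia and macrophages. RGCs had 59.9 and 78.2 CPM, striatal projection neurons 46.0 and 50.6, CGE interneurons 36.2 and 38.8, and MGE interneurons 32.1 and 24.8. Upper-layer neurons had 34.6 and 36.9 CPM, deep-layer neurons 33.6 and 26.2, and erythroid cells 12.1 and 7.03. With thinned cells it was detected in 8.28% ± 0.418 of RGCs and 2.13% ± 1.05 of erythroid cells, and the 6.72% and 1.30% of GABAergic progenitors overlapped the erythroid range. The ranges of CGE interneurons and upper-layer neurons overlapped, as did those of newborn neurons, deep-layer neurons, IPCs and MGE interneurons.

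*Slc12a5*, the chloride exporter, was the sparsest of the 7 genes, with 277 and 419 UMIs over all kept cells. MGE interneurons had 23.9 and 15.3 CPM, striatal projection neurons 13.0 and 14.7, deep-layer neurons 12.6 and 9.26, and CGE interneurons 5.17 and 10.9. Cajal-Retzius cells gave 26.2 and 9.52 CPM, on 4 and 3 UMIs. Upper-layer neurons had 3.67 and 3.81 CPM, and RGCs, IPCs and newborn neurons lay between 1.63 and 2.90. The MGE, striatal and deep-layer ranges did not overlap, the deep-layer and CGE ranges did, and each of these 4 classes rests on 6 to 32 UMIs per library. Erythroid cells had 0 and 1 UMI, where 0 allows up to 6.05 CPM (3 counts), so levels under it, which include those of CGE interneurons, upper-layer and newborn neurons, RGCs, IPCs and GABAergic progenitors, were not separable from background in replicate 1.

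Among the classes with over 4 *Slc12a5* UMIs in both libraries, the ratio of exporter to importer UMIs was highest in MGE interneurons, at 0.744 (95% interval 0.456 to 1.20) and 0.617 (0.375 to 1.0). It was 0.375 and 0.353 in deep-layer neurons, 0.284 and 0.291 in striatal projection neurons, and 0.143 and 0.282 in CGE interneurons. Upper-layer neurons had 0.106 and 0.103, newborn neurons 0.0493 and 0.0719, and RGCs 0.0455 and 0.0370. The intervals of deep-layer and upper-layer neurons did not overlap in either library, whereas those of MGE interneurons and deep-layer neurons did.

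Which of the genes separate neurons that release GABA from those that release glutamate was tested with edgeR's quasi-likelihood test on UMI sums per class and library, with the library as a block and Benjamini-Hochberg adjustment over 14687 genes. A gene is called at an adjusted p-value under 0.05, and a fold change is given on the log2 scale ± SE. The mean of MGE, CGE and striatal classes was compared with that of upper-layer and deep-layer neurons, and 5 of the 7 genes were higher and 1 was lower, while 14.2% of all genes were called higher and 18.8% lower. *Gad1* was higher by 5.88 ± 0.14 (adjusted p = 1.19e-29), *Gad2* by 5.41 ± 0.14 (1.72e-29), *Slc32a1* by 4.98 ± 0.27 (2.93e-18) and *Abat* by 3.43 ± 0.18 (3.78e-19). *Slc6a11* fell by 1.44 (SE 0.34, adjusted p = 0.000893), and the log2 ratio within replicates was -1.52 and -0.83. The call was lost when cells were thinned to 1500 UMIs before summing (-0.89, adjusted p = 0.349). *Slc12a5* was higher by 0.98 ± 0.26 (adjusted p = 0.00286), with 0.62 and 0.97 within replicates, a call lost under a stricter gate (0.56, adjusted p = 0.283) and with thinned cells (1.0, adjusted p = 0.0986). *Slc12a2* was not called, with 0.13 ± 0.15 (adjusted p = 0.587).

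Of 39 further genes of GABA, glutamate and chloride handling, 32 were tested and 11 were called in this comparison, 3 higher and 8 lower. *Slc17a6* and *Slc17a7*, which load glutamate into vesicles, changed by -5.48 and -5.38. *Slc4a10*, a sodium-driven bicarbonate and chloride carrier, fell by 3.03 and *Slc1a1*, a neuronal glutamate transporter, by 2.19. The median over the 32 genes was -0.12, against -0.05 over all genes.

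Between interneurons of the 2 ventral origins, none of the 7 genes was called by edgeR or by DESeq2, where 4.6% of all genes were higher in MGE and 4.17% higher in CGE interneurons. At an unadjusted p-value under 0.05 there were 2. *Gad1* differed by 0.04 ± 0.12 (adjusted p = 0.923) and *Gad2* by 0.28 ± 0.14 (adjusted p = 0.269). *Slc12a5* was 1.18 ± 0.41 higher in MGE interneurons (adjusted p = 0.0702), but by 2.0 in replicate 1, where the CGE level of 5.17 CPM was under the erythroid floor, and by 0.47 in replicate 2, and it passed the threshold when no low-count filter was used (adjusted p = 0.0443) or no doublets were removed (0.0298). Of the other pathway genes, 4 were higher and 2 lower in MGE interneurons. *Car2*, a carbonic anhydrase, was higher by 1.83 ± 0.38, with 24.6 and 24.8 CPM against 7.76 and 6.56. *Slc1a2*, a glutamate transporter, fell by 1.17 and *Stk39*, which encodes the kinase SPAK that activates NKCC1, by 1.06.

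Striatal projection neurons, which send GABAergic axons out of the striatum, differed from interneurons in the 2 decarboxylases in opposite directions. Of the 7 genes 1 was called higher and 1 lower, where 7.86% of all genes were higher and 7.09% lower. *Gad1* fell by 1.06 (SE 0.12, adjusted p = 2.25e-09), with -1.08 and -1.03 within replicates. *Gad2* was higher by 0.34 ± 0.12 (adjusted p = 0.0436), a call lost in 6 of 8 alternatives with the same direction. *Slc12a2* was 0.61 ± 0.22 higher without being called (adjusted p = 0.0523), and it was called in 3 of 8 alternatives. *Slc12a5* differed by 0.15 ± 0.34 (adjusted p = 0.848). In the wider pathway list, 3 were higher and 4 lower. *Stk39* was higher by 1.40 ± 0.17, with 118 and 108 CPM against 48.8 and 44.9, and *Slc4a8*, a sodium-driven chloride and bicarbonate exchanger, by 1.10 ± 0.24. *Car2* fell by 3.81, *Slc1a2* by 2.79 and *Rest*, a repressor of neuronal genes, by 1.17.

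GABAergic progenitors were compared with interneurons to ask which of the genes are present before neurons form. Of the 7 genes 5 were lower and none higher, where 20% of all genes were called in each direction. *Gad1* fell by 2.88 (SE 0.15, adjusted p = 1.3e-18) and *Gad2* by 0.90 (SE 0.13, adjusted p = 3.73e-07). *Slc32a1* fell by 1.69 (SE 0.28, adjusted p = 4.9e-06) and *Slc12a5* by 1.45 (SE 0.47, adjusted p = 0.0115), the latter not called with thinned cells (-0.55, adjusted p = 0.669). *Abat* fell by 0.50 (SE 0.19, adjusted p = 0.0322), a call lost in 4 of 8 alternatives. Interneuron markers were also lower in the progenitors, at 501 and 417 CPM for the MGE list and 297 and 184 CPM for the CGE list, against 7921 and 7553 and 7940 and 6459 in their own classes. Among the further genes, 3 were higher and 11 lower. *Slc12a7*, the potassium-chloride cotransporter KCC4, was higher by 2.72 ± 0.49, with 15.4 and 15.2 CPM against 2.29 and 2.15. *Slc4a3*, an anion exchanger, fell by 1.85, *Car2* by 1.73 and *Wnk2*, a kinase upstream of SPAK, by 1.5.

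**Figure D4:**
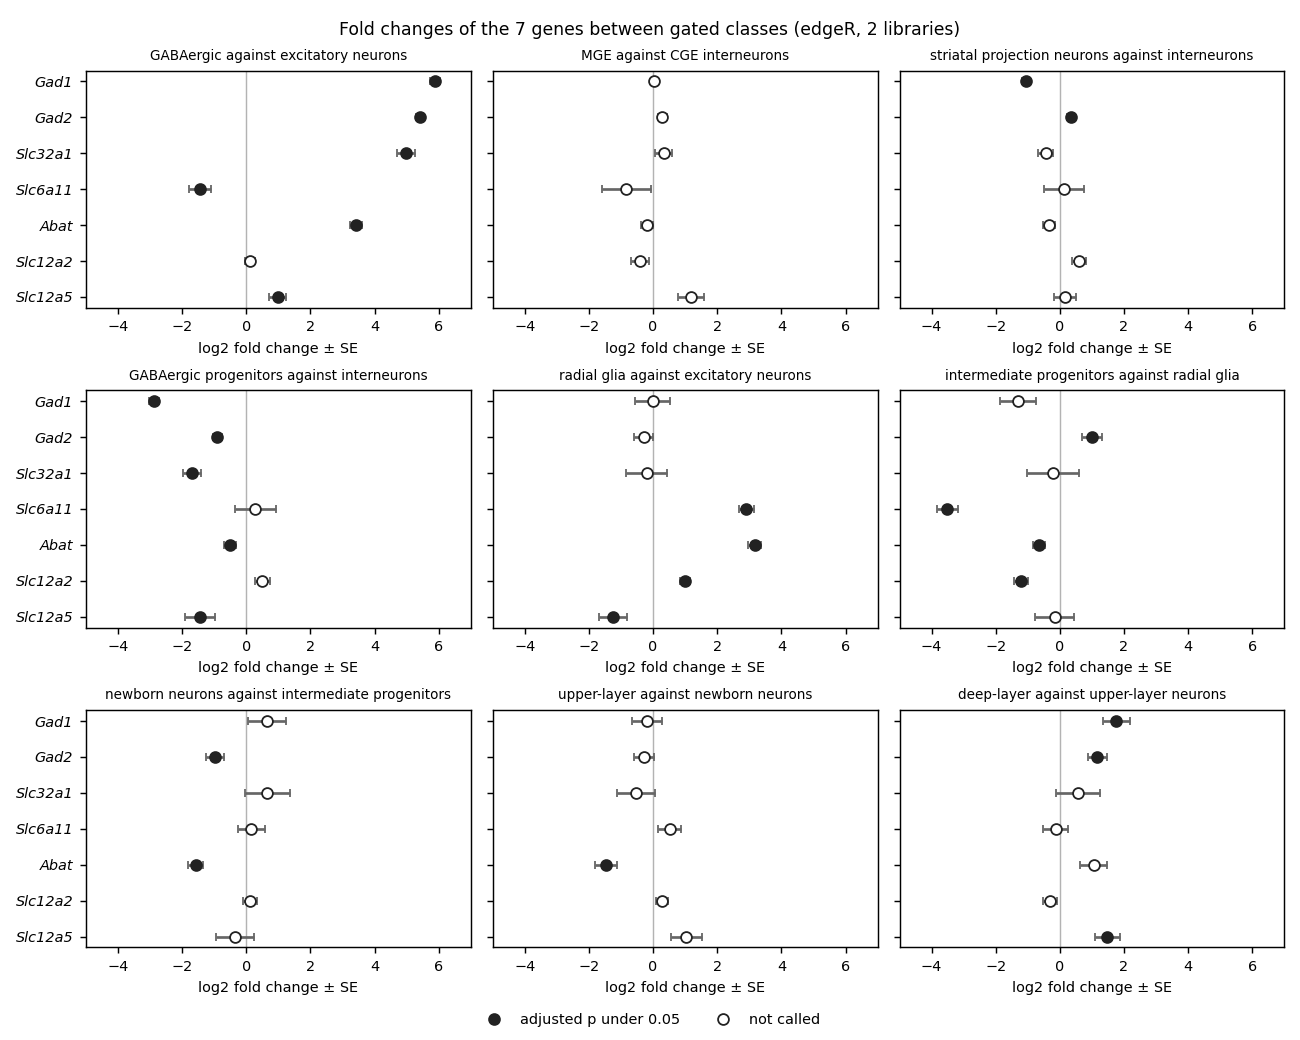
Log2 fold change of the 7 genes (x axes, ± SE of the edgeR fit over 2 libraries) in 9 comparisons of classes, 1 per panel, with filled points for an adjusted p under 0.05. *Gad1* is 5.88 higher in GABAergic than in excitatory neurons, and *Slc6a11* is 2.91 higher in radial glia than in excitatory neurons.

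Radial glia were compared with the excitatory neurons of upper and deep layers to place the importer and the exporter before and after neurogenesis. Of the 7 genes 3 were higher and 1 lower, where 32.2% of all genes were called higher and 29% lower. *Slc6a11* was higher by 2.91 ± 0.24 (adjusted p = 1.22e-13), *Abat* by 3.16 ± 0.21 (2.71e-16) and *Slc12a2* by 0.99 ± 0.16 (1.73e-06). *Slc12a5* fell by 1.26 (SE 0.43, adjusted p = 0.0112), on 7 and 9 UMIs in radial glia. *Gad1* differed by -0.02 ± 0.55 (adjusted p = 0.986). Of the other pathway genes, 13 were higher and 15 lower. *Slc17a6* fell by 5.56, *Slc4a10* by 5.44, *Slc17a7* by 4.71 and *Slc1a1* by 4.67.

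From radial glia to intermediate progenitors 1 of the 7 genes rose and 3 fell, where 14% of all genes were called higher and 19.5% lower. *Slc6a11* fell by 3.52 (SE 0.33, adjusted p = 1.89e-11), from 59.1 and 69.5 CPM to 3.61 and 6.99. *Slc12a2* fell by 1.21 (SE 0.20, adjusted p = 6.89e-06) and *Abat* by 0.65 (SE 0.19, adjusted p = 0.00713), the latter not called with thinned cells (-0.13, adjusted p = 0.861). *Gad2* was higher by 0.99 ± 0.31 (adjusted p = 0.0115), from 11.3 and 10.9 CPM to 24.5 and 18.9, which is below the erythroid level, and the call was lost when no doublets were removed (0.20, adjusted p = 0.629) and with thinned cells (1.36, adjusted p = 0.0705). The markers of GABAergic progenitors summed to 65.9 and 65.0 CPM in IPCs and to 90.3 and 103 CPM in RGCs, with 2 of 6 detected in over 10% of IPCs in both libraries, and the MGE markers to 795 and 672 against 992 and 889 CPM. The CGE markers were higher, at 145 and 88.4 CPM in IPCs against 91.8 and 76.6 in RGCs, with 2 of 6 against 1 of 6 detected in over 10% of cells in both libraries, and the striatal markers gave 52.6 and 39.1 against 36.2 and 47.0 CPM. Their part in the *Gad2* value was not tested. In the wider pathway list, 6 were higher and 13 lower. *Slc17a6* rose by 7.26 ± 0.30, from 0.778 and 1.29 CPM to 184 and 155, and *Slc4a10* by 4.11 ± 0.50. *Slc12a4*, the widely used potassium-chloride cotransporter KCC1, fell by 2.85, and *Rest* by 2.77.

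From intermediate progenitors to newborn neurons 2 of the 7 genes fell and none rose, where 16.2% of all genes were called higher and 15.9% lower. *Abat* fell by 1.58 (SE 0.23, adjusted p = 7.18e-07) and *Gad2* by 0.99 (SE 0.28, adjusted p = 0.00601), the latter a call lost when no doublets were removed (-0.68, adjusted p = 0.0536) and with thinned cells (-0.51, adjusted p = 0.479). Both *Gad2* levels lay below the erythroid one. The summed markers of GABAergic progenitors went from 65.9 and 65.0 to 13.0 and 20.1 CPM, and the MGE markers from 795 and 672 to 198 and 209, while the CGE markers went from 145 and 88.4 to 134 and 141 CPM and the striatal ones from 52.6 and 39.1 to 46.9 and 46.4. Their part in the *Gad2* value was not tested. Among the further genes, 12 were higher and 6 lower. *Slc1a1* rose by 2.64 ± 0.28 and *Wnk3*, a kinase that activates NKCC1 and inhibits KCC2, by 1.35 ± 0.19. *Slc1a2* fell by 2.55.

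From newborn to upper-layer neurons *Abat* was the 1 gene of the 7 that was called, where 10.4% of all genes were higher and 8.93% lower. It fell by 1.47 (SE 0.33, adjusted p = 0.000909), not called with thinned cells (-1.12, adjusted p = 0.178), between levels that were both within or below the erythroid one. *Slc12a5* was 1.03 ± 0.48 higher without being called (adjusted p = 0.141). Of the other pathway genes, 4 were higher and 2 lower. *Slc1a1* rose by 0.62 ± 0.16, and *Slc17a6* fell by 1.12 and *Slc1a2* by 1.11.

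Deep-layer neurons, which are born earlier, were compared with upper-layer neurons, and 3 of the 7 genes were higher and none lower, where 7.39% of all genes were called higher and 4.81% lower. *Slc12a5* was higher by 1.48 ± 0.40 (adjusted p = 0.00779), with 1.47 and 1.04 within replicates. *Gad1* was higher by 1.76 ± 0.42 (adjusted p = 0.00266) and *Gad2* by 1.17 ± 0.31 (adjusted p = 0.00702). None of the 3 calls was kept under a stricter gate, where *Slc12a5* stood at 1.42 (adjusted p = 0.0683), *Gad1* at 0.48 (adjusted p = 0.777) and *Gad2* at 0.37 (adjusted p = 0.705). The *Gad2* call was also lost with no doublets removed (0.62, adjusted p = 0.159) and with thinned cells (0.56, adjusted p = 0.7). The marker lists of the GABAergic neuron classes were also higher in deep-layer neurons. The MGE list summed to 394 and 301 CPM in deep-layer and to 116 and 116 CPM in upper-layer neurons. The CGE list gave 132 and 106 against 51.1 and 39.0, and the striatal list 58.9 and 47.8 against 12.8 and 15.6. The MGE list is not confined to GABAergic neurons, since it summed to 992 and 889 CPM in RGCs. Of these markers, 2 of 8 MGE, 2 of 6 CGE and 0 of 12 striatal ones were detected in over 10% of deep-layer cells in both libraries, and their part in the *Gad1* and *Gad2* values was not tested. In the wider pathway list, 6 were higher and 2 lower. *Neto2*, a binding partner of KCC2, was higher by 1.68 ± 0.15, with 399 and 340 CPM against 125 and 99.9, *Slc1a2* by 2.43 ± 0.23, *Slc4a10* by 1.64 ± 0.19 and *Slc17a7* by 1.24 ± 0.29. *Slc17a6* fell by 1.52.

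Whether the step from progenitor to neuron differs between lineages was tested as the difference of 2 contrasts, interneurons minus GABAergic progenitors and excitatory neurons minus radial glia. Of the 7 genes 3 were called with a higher step in the GABAergic lineage and none with a lower one, where 13.3% of all genes were called higher and 10.8% lower. The difference of the steps was 3.67 ± 0.29 for *Abat* (adjusted p = 3.36e-13), 2.86 ± 0.47 for *Gad1* (1.01e-05) and 2.63 ± 0.70 for *Slc6a11* (0.00438). As given above, *Abat* was lower in the neurons than in the progenitors of the excitatory lineage. In the GABAergic lineage *Abat* was higher in the neurons, a call lost in 4 of 8 alternatives. *Slc6a11* was lower in excitatory neurons than in RGCs. The *Gad1* call was lost with thinned cells (1.30, adjusted p = 0.56), and its levels in RGCs and excitatory neurons were below the erythroid one. *Slc12a5* was lower in the progenitors of both lineages, and its steps differed by 0.19 ± 0.71 (adjusted p = 0.916), an interval too wide to call them alike. Among the further genes, 11 had a higher and 7 a lower step in the GABAergic lineage, among them *Car2* at 4.02 ± 0.64, and *Slc17a6* at -5.72 ± 1.70 and *Slc17a7* at -4.67 ± 1.68.

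The genes whose level followed each of the 7 most closely over the 16 classes were found by Pearson's r of log2(CPM + 1), as a description over classes that share their libraries. *Gad1* was most like *Gm14204* (r = 0.98), *Gad2* (0.96) and *Sp9* (0.94), and *Slc32a1* was most like *Gad2* (0.96), *Gm14204* (0.95) and *Dlx5* (0.94). *Gm14204* is the noncoding gene named above, whose span overlaps that of *Slc32a1*. The nearest to *Slc6a11* were *Ttyh1* (0.86), *9330111N05Rik* (0.84) and *Fgfr3* (0.83), and to *Abat* they were *Zfp536* (0.86), *Gm19522* (0.79) and *Rnd3* (0.77). *Slc12a2* was most like *Arhgap10* (0.90), *Map2k1* (0.90) and *Myh9* (0.89), and *Slc12a5* was most like *Gm19667* (0.90), *Gm17135* (0.88) and *Gm20712* (0.87).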

How the data were processed

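Both libraries were deposited as matrices of UMI counts per gene and cell barcode, which the authors made with Cell Ranger (7.0.0 per the labels, 7.1.0 per the file headers, build mm10). Cells with 1500 to 60000 UMIs and under 10% mitochondrial UMIs were kept (65.9% and 75.6% of barcodes), and the highest-scoring 0.8% per 1000 barcodes by Scrublet in scanpy 1.11.5 were removed as doublets. Cells were classed by the mean scaled expression of fixed markers, with a score of at least 0.5, a lead of at least 0.25, 2 markers with a UMI and the required genes. The stricter gate used 1, 0.5 and 3 markers. UMIs were summed per class and library (32 sums), scaled by TMM and tested with edgeR 4.0.16 in R 4.3.3, with the library as a block, for the 14687 genes that reached 10 counts in 2 or more sums. The 7 genes, markers and pathway lists were chosen with earlier results of these data known. Besides the 7, up to 5 called pathway genes per comparison were named by size, with at least 10 CPM on the higher side and the same direction in both libraries, and some of these are not reported here. Values within a replicate are log2 ratios of CPM with a prior count of 2. Alternatives were DESeq2 1.42.0, its size factors, no filter, no library block, fewer classes, the stricter gate, no doublet removal, thinned cells and each library alone. Intervals and floors cover counting error only. Replicate numbers follow accession order. The library block pairs class sums from the same library and is known from the files.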

Additional observations from a re-analysis of the deposited data

Results flagged for a closer look

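The step from progenitor to neuron differed between the GABAergic and the excitatory lineage for 3 of the 7 genes. This was edgeR's test of the difference itself over both libraries, where 13.3% of all genes were called higher and 10.8% lower. The log2 difference of the steps was 2.86 for *Gad1*, 2.63 for *Slc6a11* and 3.67 for *Abat*, each in the same direction in both libraries. Within replicates 1 and 2 it was 2.94 and 2.69 for *Gad1*, 1.70 and 3.34 for *Slc6a11*, and 2.86 and 3.80 for *Abat*. The *Gad1* call was lost when cells were thinned to 1500 UMIs (1.30, adjusted p = 0.56). Its levels in RGCs, 4.28 and 4.50 CPM, and in upper-layer and deep-layer neurons, 1.83 to 8.41 CPM, were below the 48.4 and 18.7 CPM of erythroid cells. *Slc6a11* in interneurons and GABAergic progenitors rested on 2 to 7 UMIs per class and library, 1.49 to 5.45 CPM, against 2.02 and 5.86 in erythroid cells. *Abat* in upper-layer neurons, 2.88 and 2.94 CPM, lay below the 16.1 and 5.86 CPM of erythroid cells.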

How the results depend on the processing

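Of 30 calls among the 7 genes, all 30 had the same direction in both libraries, 17 were kept under all 8 alternatives, 13 were lost under at least 1 and 0 were reversed. For MGE against CGE interneurons 1 gene was called with no low-count filter and 1 with no doublets removed, against 0. For striatal projection neurons 1 gene was called, against 2, with DESeq2 size factors, with no replicate block, under the stricter gate, with thinned cells and with DESeq2, and 4 were called when the fit held just the classes compared. Without the replicate block the only other call lost was *Abat* in GABAergic progenitors (-0.50, adjusted p = 0.0563). The stricter gate gave 0 calls for deep-layer against upper-layer neurons. Newborn neurons against IPCs had 1 call with no doublets removed and 1 with thinned cells. Thinning, which discards most UMIs by construction, left 3 calls for GABAergic progenitors, 2 for IPCs against RGCs and 0 for upper-layer against newborn neurons. Signs turned only for genes that were not called: *Gad1* in MGE against CGE interneurons (-0.008228 with only the compared classes, -0.0301 under the stricter gate, -0.15 thinned), *Slc12a5* in striatal projection neurons (-0.38, stricter gate), *Slc12a5* in the difference of steps (-0.11, stricter gate, and -2.07, thinned), and *Gad1* in RGCs against excitatory neurons (0.00054, DESeq2). Other causes were not tested. In MGE interneurons the share of cells was 65.2% for *Gad1*, 79.8% for *Gad2* and 23.1% for *Slc32a1* in unthinned cells with at least 1 UMI. In thinned cells, against 36.6%, 54.0% and 10.7% with at least 1 UMI, it was 8.88%, 21.7% and 1.0% with at least 2. In alternatives chosen after seeing the data, the *Gad1* to *Gad2* ratio in MGE interneurons was 0.557 under the stricter gate, and the *Slc12a5* to *Slc12a2* ratio in deep-layer neurons was 0.407 under the stricter gate and 0.327 with no doublets removed. *Slc12a5* had the fewest UMIs of the 7 genes over all kept cells, and at most 32 per class and library.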
